A study of Mus musculus with 145 samples.

Results

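The Clec and Cd209 genes of the mouse encode the C-type lectin and C-type lectin-like proteins, and their expression was followed here over 65 groups of sorted cells on 145 Affymetrix arrays. A gene was taken when its probe set carried a single annotated symbol that starts with Clec and a digit, or that is Cd209 followed by a letter from a to g. This gave 41 probe sets and 40 genes of the 19752 genes with a symbol, and for the 1 gene with more than 1 probe set, Clec4g, the probe set with the higher mean was used. They comprise 7 Cd209 genes, 11 Clec4 genes, 8 Clec2 genes and 14 others.

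The series is the second microarray phase of the Immunological Genome Project, which profiles sorted mouse immune and stromal cells. Most groups came from male C57BL/6 mice, and the age in weeks or days is given below as labelled. The lung gave CD11b+ macrophages (MertK+, CD64+, CD11c-, CD11b+), alveolar macrophages (MertK+, CD64+, CD11c+, CD11b-) and monocytes (MertK-, CD64+, Ly6C+, MHCII+) from mice of 6 weeks. Blood monocytes of mice of 6 weeks were CD115+, Ly6C+ and MHCII+. The group compared here was titled 6+2-, and a single array titled 6+2+ carried the same marker label. Monocytes of the skin-draining lymph node, also from mice of 6 weeks, were CD64+, Ly6C+ and MHCII+. Liver macrophages of mice of 6 weeks were CD45+, CD64+ and Mertk+, and were split by F4/80 into a high group and a group called intermediate in its title and low in its marker label. Peritoneal macrophages were F4/80hi, ICAM2hi and CD11bhi, came from mice of mixed background aged 9 weeks, and carried the genotype ctrl or Gata6ko, for which the labels name no promoter or Cre. Visceral fat of mice aged 45 to 52 days gave CD64+ Mertk+ macrophages and MHCIIhi CD11c+ dendritic cells, CD11b+ or CD11b-, from which CD64 and Mertk cells were excluded. Blood neutrophils were SSChi and Ly6Ghi, and the 4 arrays mix ages of 6 weeks, 7 weeks, 43 days and 48 days. Blood eosinophils were SSChi and SiglecF+, from mice of 44, 48 and 50 days. Mast cells were taken from skin and from the peritoneal cavity of mice of 6 weeks, and 2 of the 4 arrays of the peritoneal group are labelled with blood as their source. Stroma came from the subcutaneous lymph nodes of C57BL/6J mice of 6 weeks. It was split into fibroblastic reticular cells (gp38+, CD140a+), lymphatic endothelial cells (gp38+, CD31+) and double-negative cells (gp38-, CD31-). Fibroblastic and double-negative groups taken 6 days after adjuvant (CFA in the title), with 2 arrays each, entered the same fit. A single lymphatic endothelial array after adjuvant did not. Naive CD4 and CD8 T cells of lymph nodes of mice of 6 weeks were cultured with beads bearing antibodies to CD3 and CD28, and the control carries the same treatment label. Medullary thymic epithelial cells (CD45-, Ly51-, MHCIIhi) of mice aged 5 weeks and of both sexes were GFP+, GFP-, or GFP+ from a knockout whose gene the labels do not name. Groups named below only for a high mean include other medullary epithelium of 5 and 8 weeks. They also include CD8 cells of mice of 45 days, 8 days after Listeria infection. Others are CD69+ double-positive thymocytes and mesenteric-node monocytes of 6 weeks, a B1a array of 9 weeks and a fat eosinophil array of 45 days. A fibroblastic array titled Cad11.WT is labelled 6 weeks. Correlations over the 65 groups also took in groups not named below. Among these are thymocytes titled e17 (labelled 5 weeks) and CD4 cells 8 and 30 days after LCMV (6 weeks). CD8 cells titled OT1 and Tbet+ or Tbet-, 6 days after Listeria (45 days), are also among them. The labels do not say whether arrays of a group came from separate mice, so the p-values measure the spread between arrays, which may be technical.

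C-type lectins are calcium-dependent or structurally related receptors that bind sugars, lipids, proteins or dead-cell products. Dectin-type receptors such as Clec7a, Clec4e, Clec4d and Clec4n signal through the kinase Syk and the adaptor Card9, directly or through the Fc receptor gamma chain, and start inflammatory responses to fungi and mycobacteria. Clec4a2 and Clec12a carry inhibitory motifs, and the Cd209 proteins capture mannose-rich and fucose-rich glycans. Some Clec2 proteins, among them Clec2d and Clec2i, are ligands of Klrb1 receptors on natural killer cells and T cells.

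Median intensity was between 112 and 147, replicate arrays of a group correlated at 0.922 to 0.997, and 0 pairs of arrays were identical. Values are linear intensities, and a level of 91.8, the 95th percentile of 1035 olfactory receptor probe sets, served as the background; 59.8% of all values exceeded it. The 4 macrophage genes measured (Adgre1, Mertk, Fcgr1, Csf1r) were over background in each of the 7 macrophage groups, and 4 of 4 mast cell genes in skin and peritoneal mast cells. The group labelled fat CD11b+ dendritic cells carried markers of both kinds: 3 of 4 dendritic cell genes were over background, with Xcr1 under it, but so were 4 of 4 macrophage genes, although cells with CD64 and Mertk were to be excluded. Its macrophage genes summed to 3778 to 5929.6 and its dendritic cell genes to 576 to 790.3, and Fcgr1, the gene of CD64, read 94.8, 84.8 and 105, so the name used for it below is the label's. An intensity cannot be compared between genes, because probe sets differ in how brightly they report. In sorted populations, fewer cells that express a gene and less RNA per cell cannot be told apart. Differences are in log2 intensity with the standard error (SE) of limma's fit across all 24922 probe sets, and a difference passed the test when its Benjamini-Hochberg adjusted p was under 0.05 and it was at least 2-fold. Several comparisons share a group (the alveolar, CD11b+ lung, F480hi liver and control peritoneal macrophages, the lung and blood monocytes, the neutrophils, the fat CD11b+ dendritic cells, the fibroblastic reticular cells, the GFP+ epithelium), so they are not independent of each other.

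Of the 40 genes, 39 had a group mean over background, and Clec2m did not, with its highest group mean at 88.0. Clec2d, Clec16a and Clec18a were over background in all 65 groups. Each array had between 4 and 30 of the genes over background. The count of group means over background was 28 in F480int liver macrophages, 26 in fat macrophages, 24 in CD11b+ lung macrophages, 22 in neutrophils, 18 in alveolar macrophages and eosinophils, 16 in control peritoneal macrophages, 13 in skin mast cells and 9 in fibroblastic reticular cells. For 15 of the genes every array of the group with the highest mean lay above every other array of the series (Clec4f, Clec9a, Clec4g, Clec4a3, Clec4d, Clec1b, Clec4n, Clec5a, Clec12b, Clec16a, Clec14a, Clec3b, Clec4b1, Clec4b2 and Clec18a). The highest group of Clec3b and that of Clec18a hold a single array each. The share of all probe sets with such a separation was not computed, so the count is a description. For the other 25 the highest group is not separated from all others, and its name below is a description. Across 19 comparisons, 33 genes (82.5%) passed the test in at least 1 and 7 in none, against 48.4% of all probe sets. There were 162 passing differences of 760 (21.3%), against 7.05% of the differences of all probe sets. Among those 162, the arrays of the groups overlapped in 1, Cd209e between fat macrophages and fat CD11b+ dendritic cells. The share of overlap among the passing differences of all probe sets was not computed. In 9 of the 162, both means were under background.

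**Figure D1:**
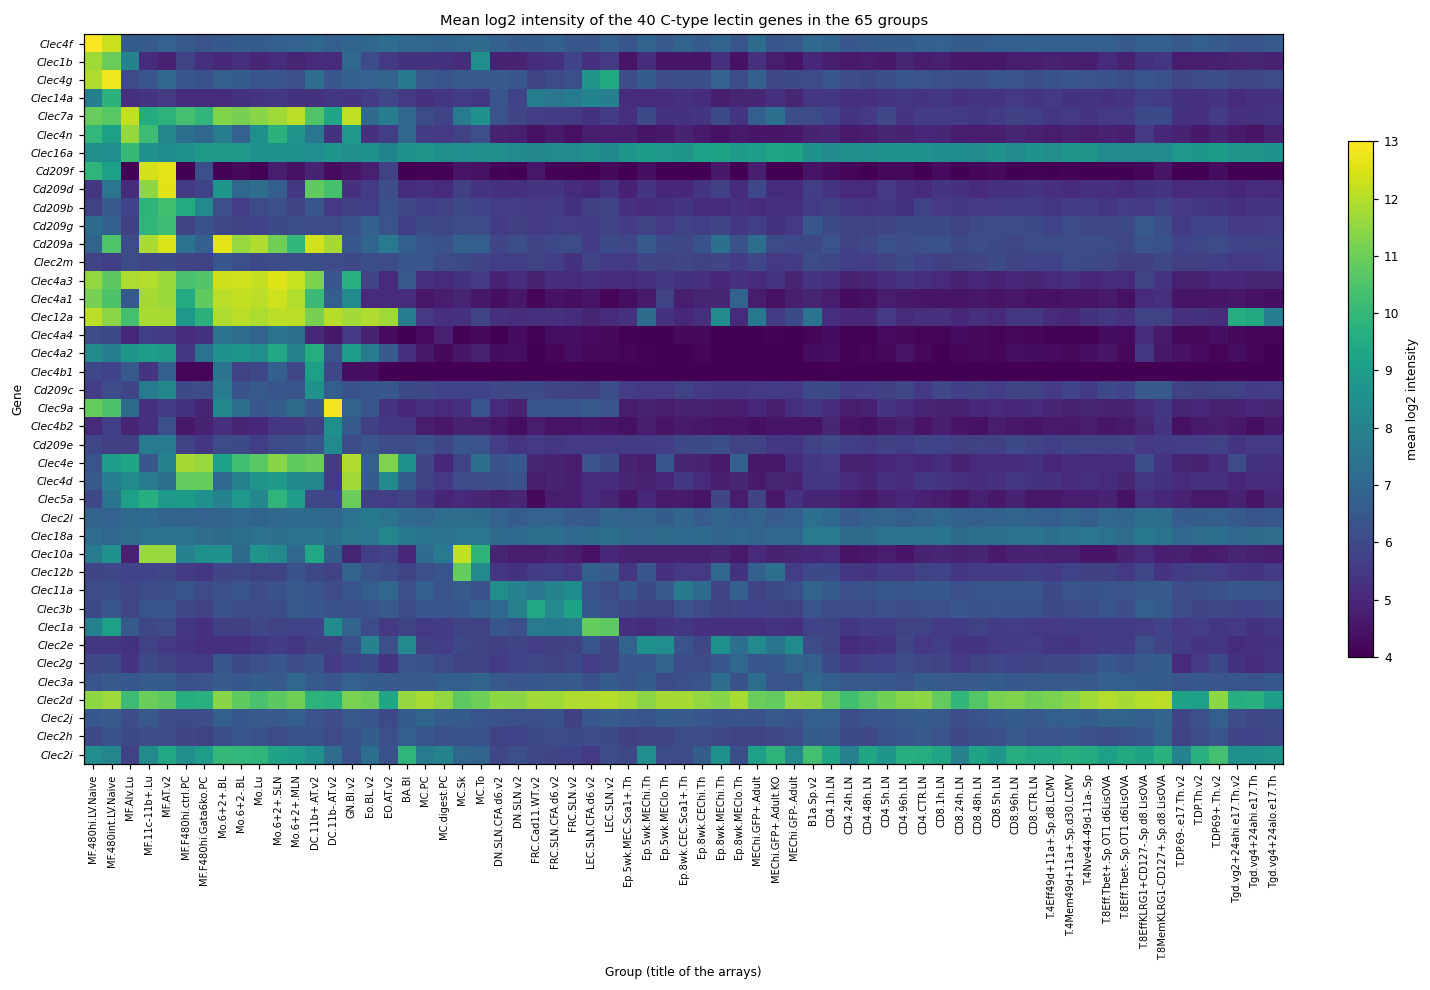
Mean log2 intensity of the 40 Clec and Cd209 genes (rows) in the 65 groups (columns), with the colour scale in log2 units. Bright blocks separate the macrophage, monocyte, dendritic cell and granulocyte groups from the lymphocyte and epithelial groups, where Clec2d, Clec16a and Clec18a stay over background.

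The Cd209 genes, the mouse relatives of human DC-SIGN, read higher in CD11b+ lung macrophages and fat macrophages than in alveolar macrophages. Cd209f had intensities of 5489, 4923 and 6157 in the 3 CD11b+ lung arrays, 3735, 8623 and 7991 in the 3 fat macrophage arrays and 16.9, 16.2 and 17.3 in the 3 alveolar arrays. The alveolar arrays lay under background and far from the others, and Cd209f was lower in alveolar than in CD11b+ lung macrophages (log2 difference -8.36 ± 0.37, adjusted p = 1.9e-21). All 7 Cd209 genes were lower in alveolar macrophages, with log2 differences of -6.35 ± 0.34 for Cd209d, -5.77 ± 0.57 for Cd209a, -4.19 ± 0.27 for Cd209g, -4.04 ± 0.35 for Cd209b, -2.05 ± 0.30 for Cd209e and -1.85 ± 0.23 for Cd209c. In this comparison 18 of the 40 genes passed the test, 7 higher and 11 lower in alveolar macrophages, against 9.17% of probe sets (4.91% higher and 4.27% lower); the median difference was -0.31 over the 40 genes and -0.01 over all probe sets. Markers of other cells moved with it: both measured monocyte genes (Ccr2 and Cx3cr1) were lower in alveolar macrophages, summing to 194 to 224 with Ccr2 under background, against 1814 to 2843 in CD11b+ lung macrophages, and 2 of 4 platelet genes were lower. Of the macrophage genes 2 of 4 were lower too (median -1.01), as were 1 of 4 T cell and 1 of 3 lymphatic endothelial genes. Higher in alveolar macrophages were 1 of 4 eosinophil and 1 of 3 epithelial genes. The part of RNA of other cells in the Cd209 differences was not tested.

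Lung monocytes were compared with CD11b+ lung macrophages of the same organ. Cd209a, the gene nearest in name to DC-SIGN, read 3865, 4099.8 and 3291 in CD11b+ lung macrophages and 3633, 3008 and 5255 in lung monocytes, and the arrays overlapped (log2 difference -0.05 ± 0.57, adjusted p = 0.99). The other 6 Cd209 genes were higher in the macrophages, Cd209f by 8.37 ± 0.37, Cd209d by 4.29 ± 0.34, Cd209g by 4.07 ± 0.27 and Cd209b by 3.78 ± 0.35. In all, 15 of the 40 genes passed, 9 higher and 6 lower in the macrophages, against 8.12% of probe sets (4.17% higher and 3.94% lower). The monocyte genes summed to 5236 to 6587 in lung monocytes, with 1 of 2 lower in the macrophages, and 2 of 4 macrophage genes were higher there. Higher in the macrophages were also 2 of 4 platelet genes (median 1.53), 2 of 3 lymphatic endothelial genes (median 1.01) and 1 of 4 T cell genes. Lower were 1 of 4 dendritic cell and 1 of 4 neutrophil genes. The part of RNA of other cells in these differences was not tested. Blood monocytes read 3842 and 2604 for Cd209a, the single array titled 6+2+ read 6309, and neutrophils were lower than blood monocytes (log2 difference -5.19 ± 0.60).

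Fat macrophages carried the highest group mean of Cd209d, Cd209f, Cd209b and Cd209g, but with a wide spread. Cd209d read 2657, 9083 and 10148 in the 3 arrays, Cd209b 389, 2181 and 2212 and Cd209g 499, 1916 and 1672. The first array was the lowest of the 3 for each of these genes, and it also differed in other markers. Ccr2, a monocyte receptor, read 3512, 683 and 1075 and the B-cell gene Cd79a 232, 39.3 and 41.4. Lyve1, which is not on the macrophage list, read 3632, 6677 and 6552 in the same order. The monocyte list (Ccr2 and Cx3cr1, both over background) summed to 1014 to 4087 and the B-cell list (1 of 2 over background) to 66.8 to 390.0. Their part in the Cd209 levels was not tested. Fat macrophages and fat CD11b+ dendritic cells differed in 10 of the 40 genes, 8 higher and 2 lower in the macrophages, against 5.63% of probe sets (3.37% higher and 2.26% lower). Among the 8 were Cd209f (7.73 ± 0.37), Cd209g (4.1 ± 0.27), Cd209b (3.90 ± 0.35), Cd209d (1.80 ± 0.34) and Cd209e (1.29 ± 0.30). Cd209a read 3793, 7162 and 7087 in the macrophages and 3387, 6308 and 7215 in the CD11b+ dendritic cells, with a difference of 0.11 ± 0.57 (adjusted p = 0.92), and its arrays overlapped. Cd209c had its highest group mean in CD11b+ dendritic cells, 402 ± 77.3 (SD, n = 3).

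Among the 65 group means, the gene whose log2 profile was most like that of Cd209f was Folr2 (Pearson r 0.94), followed by Cd163 (0.92) and Cd209g (0.91). Cd209d was most like Mgl2 (0.88), and then Cd209a and Cd209c (0.87 each). These are descriptions across groups that share arrays and lineage. Because Cd209f and Cd209g varied together over the groups, their promoters are shown, 250 bases before to 50 bases after the start in RefSeq on build GRCm38.p6, with the longest run that both share in capitals. Cd209f lies on the minus strand at chr8:4105715-4106014 and Cd209g on the plus strand at chr8:4134486-4134785. The gene records span chr8:4102784-4105838 and chr8:4134246-4137707, so the Cd209g window lies wholly inside its record. For both genes the start used for the promoter differs from the outer end of the record.
Cd209f: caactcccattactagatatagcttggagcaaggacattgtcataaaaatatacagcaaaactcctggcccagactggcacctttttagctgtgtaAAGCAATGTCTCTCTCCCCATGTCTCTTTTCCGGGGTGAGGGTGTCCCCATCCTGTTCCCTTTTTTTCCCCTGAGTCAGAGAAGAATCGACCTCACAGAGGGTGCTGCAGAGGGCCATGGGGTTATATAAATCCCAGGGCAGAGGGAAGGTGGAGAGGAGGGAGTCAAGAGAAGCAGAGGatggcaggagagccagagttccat
Cd209g: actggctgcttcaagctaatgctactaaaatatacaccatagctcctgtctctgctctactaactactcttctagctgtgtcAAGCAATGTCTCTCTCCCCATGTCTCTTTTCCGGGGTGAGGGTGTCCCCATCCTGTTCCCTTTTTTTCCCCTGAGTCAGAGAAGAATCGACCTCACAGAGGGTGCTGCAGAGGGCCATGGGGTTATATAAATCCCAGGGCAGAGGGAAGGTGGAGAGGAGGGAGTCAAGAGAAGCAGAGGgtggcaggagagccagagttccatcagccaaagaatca
The shared run is 180 bases long, and 86.7% of the 300 aligned bases were identical, against a median of 58.3% over the 528 pairs of the 33 genes whose promoter was in the table. Motifs were searched on both strands in all 27025 promoters of the table. The letters TGANTCA, the form bound by AP-1 factors, occurred once in each of the Cd209f and Cd209g promoters, in 8 of the 33 and in 7.93% of all promoters. TATAAA occurred once in each, in 11 of the 33 and in 14.2% of all. GAGGAAG, the form bound by PU.1, occurred in neither, in 7 of the 33 and in 13.5% of all.

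**Figure D2:**
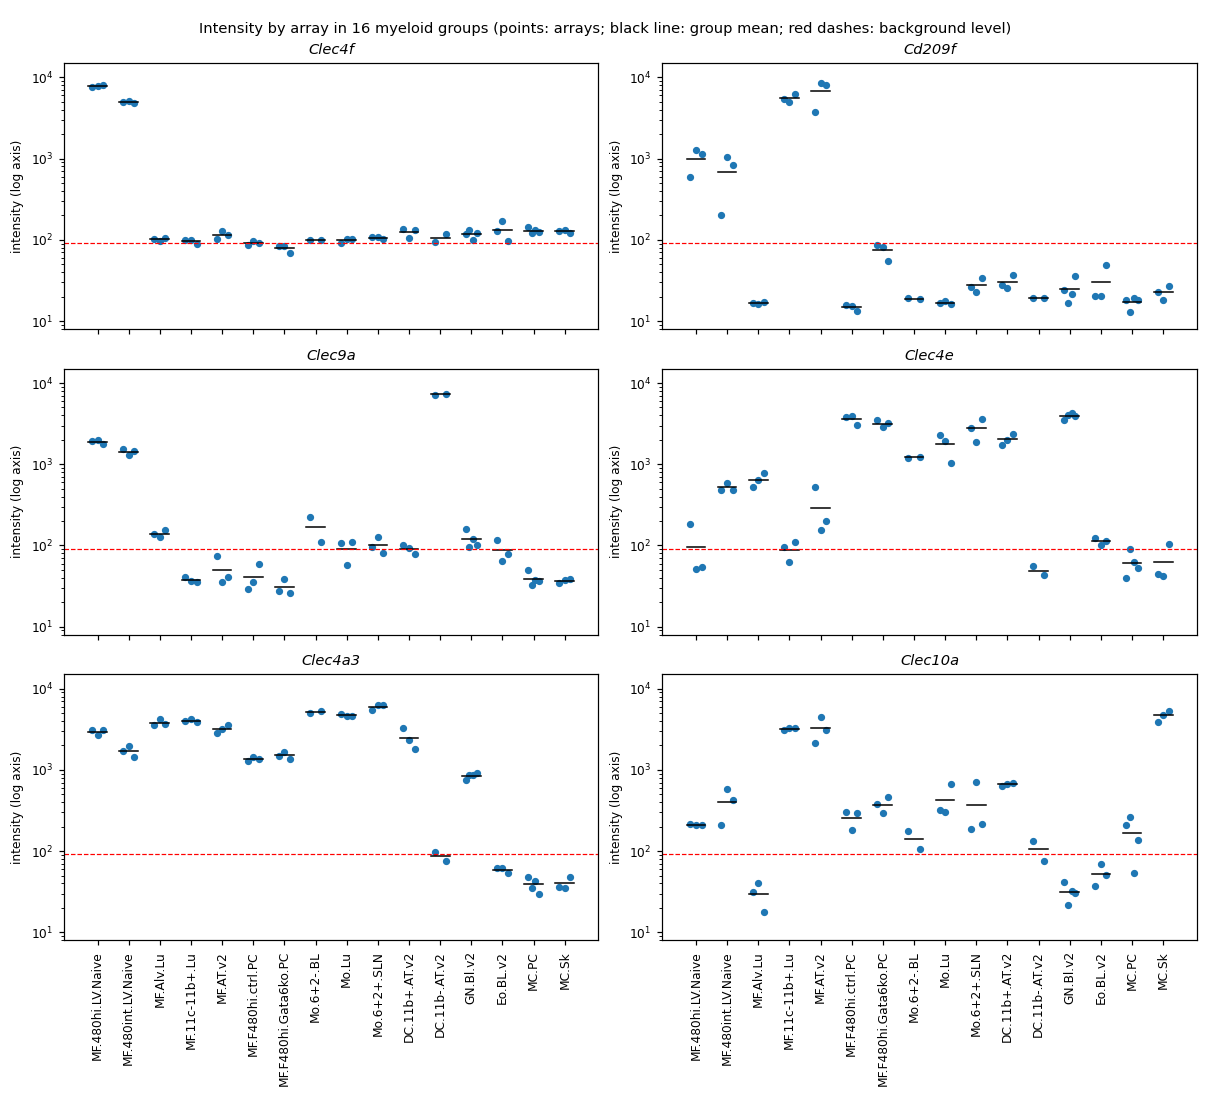
Intensity on a log axis of Clec4f, Cd209f, Clec9a, Clec4e, Clec4a3 and Clec10a on every array of the 16 myeloid groups, with the group mean as a black line and the background of 91.8 as red dashes. Clec4f stands above the other groups only in the 2 liver macrophage groups, and Cd209f is highest in fat and CD11b+ lung macrophages.

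The liver macrophage groups held the highest group means of Clec4f, Clec1b, Clec4g and Clec14a. Clec4f, the Kupffer cell receptor that binds galactose-type sugars, read 7568, 7806 and 8091 in the 3 F480hi arrays and 5006, 5105 and 4859 in the 3 F480int arrays, whereas the next highest group mean was 147 in the fat eosinophil array. Clec1b, the podoplanin receptor CLEC-2, read 3729.8, 3089 and 3333 in F480hi and 2698, 1732 and 1642 in F480int arrays. All 6 liver arrays lay above every other array for both genes. Between F480hi liver and alveolar macrophages 20 of the 40 genes passed, 14 higher and 6 lower in the liver, against 10.9% of probe sets (6.15% higher and 4.72% lower). The higher genes were led by Clec4f (6.26 ± 0.13), Clec4g (5.84 ± 0.15), Cd209f (5.82 ± 0.37), Clec4a1 (4.62 ± 0.17), Clec9a (3.77 ± 0.27) and Clec1b (3.70 ± 0.22). The lower genes were Clec5a (-3.16 ± 0.33), Clec4e (-2.99 ± 0.38), Clec4d (-1.79 ± 0.28), Clec4n (-1.63 ± 0.28), Clec16a (-1.61 ± 0.13) and Clec7a (-1.28 ± 0.19).

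The F480hi and F480int liver groups differed in 7 of the 40 genes, all lower in F480hi, against 2.76% of probe sets in that direction. Cd209a read 84.0, 109 and 170.3 in F480hi and 1884, 1537 and 1122 in F480int arrays (log2 difference -3.68 ± 0.57, adjusted p = 7.2e-06), and the arrays did not overlap. Clec14a, an endothelial receptor of the vessel wall, read 157, 276 and 307 in F480hi against 689.9, 1192 and 809 in F480int arrays (-1.88 ± 0.20). Clec1a, a melanin receptor of endothelial and myeloid cells, read 201, 345 and 215 in F480hi against 459.9, 567 and 588 in F480int arrays (-1.12 ± 0.18), and neither gene overlapped between the groups. The others were Clec4e (-2.69 ± 0.38), Cd209d (-2.12 ± 0.34), Clec5a (-1.54 ± 0.33) and Clec4d (-1.36 ± 0.28). The log2 difference of Clec4f was 0.65 ± 0.13 (adjusted p = 5.7e-04) and that of Clec4g -0.90 ± 0.15 (adjusted p = 3.2e-05), both under 2-fold. Clec4g, known as LSECtin from liver sinusoidal endothelium, read 2762, 4418 and 4736 in F480hi and 6466, 8034 and 7220.1 in F480int arrays. Its 2 probe sets disagree: by the other, F480hi liver was 0.84 above alveolar macrophages and did not pass.

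Markers of other cells were present on the liver arrays beside these lectins. The sinusoidal endothelial genes Stab2, Kdr and Cdh5 were all over background on each liver array, with a summed intensity of 13444 to 14593 in F480hi and 17294 to 18182 in F480int arrays. Stab2 read 2592, 2488 and 2672 in F480hi and 6144, 5088 and 5070.0 in F480int arrays, and Kdr 874, 1109.8 and 1143 against 2992, 3023 and 3033. The hepatocyte genes Alb, Apoa1 and Ttr summed to 5797 to 7067 and 5217 to 7047, and the dendritic cell genes, all 4 over background in both groups, to 447 to 519 and 827 to 1535, against 9240.3 to 10259.6 in fat CD11b- dendritic cells. The 4 macrophage genes summed to 18328 to 19468 in F480hi and 11549.7 to 13609 in F480int arrays. None of these lists had a gene listed at 0. Both measured monocyte genes were lower in F480hi, summing to 266 to 394 with Ccr2 under background, against 935 to 1651 in F480int arrays (median log2 difference -2.06). Of the neutrophil genes (S100a8, S100a9, Csf3r, Retnlg) 3 of 4 were lower in F480hi (median -1.30), summing to 732 to 794 with 1 of 4 over background, against 885 to 1075 with 3 of 4 over background in F480int arrays. Lower in F480hi were also 1 of 4 mast cell, 1 of 4 T cell, 1 of 4 platelet and 1 of 3 lymphatic endothelial genes. Of the eosinophil genes 1 of 4 was higher. The part of endothelial, hepatocyte, dendritic cell, monocyte, neutrophil or other RNA in the levels of the lectins named for the liver groups was not tested.

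**Figure D3:**
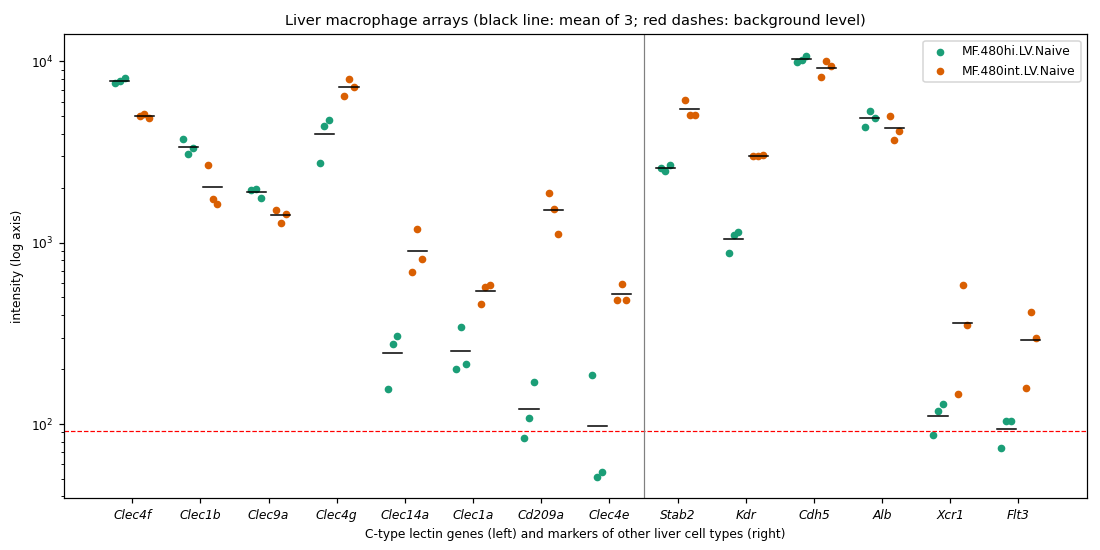
Intensity on the 6 liver macrophage arrays of 8 lectins (Clec4f, Clec1b, Clec9a, Clec4g, Clec14a, Clec1a, Cd209a, Clec4e) and of Stab2, Kdr, Cdh5, Alb, Xcr1 and Flt3. The F480hi arrays read above the F480int arrays for Clec4f and below them for Clec4g, Clec14a, Clec1a, Cd209a, Stab2 and Kdr.

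Control peritoneal macrophages differed from F480hi liver macrophages in 19 of the 40 genes, 4 higher and 15 lower, against 9.37% of probe sets (4.1% higher and 5.27% lower). The higher genes were Clec4e (5.48 ± 0.38), Clec4d (4.35 ± 0.28), Cd209b (3.76 ± 0.35) and Clec5a (2.94 ± 0.33). Clec4e, or Mincle, recognises mycobacterial glycolipid and a nuclear protein of dying cells, and Clec4d, or MCL, is its partner. The lower genes were led by Clec4f (-6.44 ± 0.13), Cd209f (-6.00 ± 0.37), Clec1b (-5.94 ± 0.22), Clec9a (-5.59 ± 0.27) and Clec4g (-5.51 ± 0.15). By the other Clec4g probe set the last difference was 0.22, with the sign turned. The peritoneal mice were of mixed background and aged 9 weeks, and the liver mice were aged 6 weeks. Tissue, background and age therefore cannot be told apart in this comparison.

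The Gata6ko label was compared with its control in peritoneal macrophages, where the transcription factor Gata6 sets the tissue program. The probe set of Gata6 gave no check of the label, since it read 3047, 2568 and 3119.7 in the arrays labelled Gata6ko and 2832, 3221 and 2553 in the controls (log2 difference 0.02 ± 0.14, adjusted p = 0.99), and the labels do not say whether it lies in a deleted part, so the group is called by its label throughout. Of the 40 genes 4 passed, 3 higher and 1 lower, against 1.09% of probe sets (0.819% higher and 0.269% lower). Clec4a1 read 1832, 1882 and 1627 in the arrays labelled Gata6ko and 851, 715 and 682 in the controls (log2 difference 1.25 ± 0.17, adjusted p = 4.7e-06), with no overlap. Clec4a2, an inhibitory receptor, was higher by 1.94 ± 0.19 (adjusted p = 4.6e-09), and Cd209f by 2.31 ± 0.37 with both means under background. Cd209b, or SIGNR1, read 342, 176 and 459 against 805, 713 and 679 (log2 difference -1.27 ± 0.35, adjusted p = 0.0312), and this call was lost when the arrays labelled Gata6ko replicate 1 or 2, or control replicate 1, 2 or 3, were left out (adjusted p 0.0566 to 0.365). Clec4e read 3491, 2839 and 3188 against 3838, 3899 and 3057 in the controls, with overlapping arrays (log2 difference -0.18 ± 0.38, adjusted p = 0.96). The monocyte list (Ccr2 and Cx3cr1) summed to 548 to 1150.5 in the arrays labelled Gata6ko, with 2 of 2 genes over background, and to 171 to 221 in the controls, where Ccr2 was under it. The Ccr2 values were 559, 993 and 451 against 54.0, 62.0 and 60.9, and the part of monocyte RNA in these differences was not tested. Among the other lectins the mannose receptor Mrc1 was higher by 4.81 ± 0.24.

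The Clec4a genes, which encode relatives of the dendritic cell immunoreceptor, had their highest group means in monocytes, other than Clec4a2. Clec4a3 had its highest group mean in skin-node monocytes, 6023 ± 506 (SD, n = 3), above every other array, and Clec4a1 was also highest there, at 5283 ± 450.2 (SD, n = 3). Clec4a1 read 3064, 3822 and 3734 in CD11b+ lung macrophages and 90.3, 90.1 and 101 in alveolar macrophages (log2 difference -5.24 ± 0.17, adjusted p = 1.9e-25). Clec4a4 was also highest in skin-node monocytes, at 178 ± 28.1 (SD, n = 3), and Clec4a2 in fat CD11b+ dendritic cells, at 775 ± 168 (SD, n = 3), where its arrays of 897, 845 and 583 overlapped those of skin-node monocytes, 632, 711 and 735. The profile of Clec4a3 over the 65 groups was most like those of Tlr8 (r 0.99), Clec4a1 (0.96) and Csf1r (0.95), and that of Clec4a1 like those of Clec4a3 (0.96), Tlr8 (0.94) and Csf1r (0.94). Clec12a, an inhibitory receptor that senses uric acid crystals, had its highest group mean in skin-node monocytes too, at 4435 ± 241 (SD, n = 3), but the single mesenteric-node monocyte array read 4413 and F480hi liver macrophages 4379 ± 201 (SD, n = 3), within that spread. It was lower in alveolar than in CD11b+ lung macrophages (log2 difference -1.56 ± 0.22).

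CD11b+ and CD11b- dendritic cells of fat differed in 15 of the 40 genes, 11 higher and 4 lower in CD11b+, against 8.15% of probe sets (3.94% higher and 4.21% lower). Macrophage and dendritic cell markers moved with these genes. Of the 4 macrophage genes 3 were higher in CD11b+ (Adgre1 5.18, Csf1r 3.99, Mertk 1.71; median of the list 2.85), with a sum of 3778 to 5929.6 against 293 to 335 in CD11b- arrays, where 3 of the 4 were under background. All 4 dendritic cell genes were lower in CD11b+ (median -3.40), with a sum of 576 to 790.3 against 9240.3 to 10259.6. The part of macrophage RNA in the lectin differences was not tested. Clec9a, or DNGR-1, a receptor for actin filaments of dead cells, read 7099.7 and 7417 in the 2 CD11b- arrays and 101, 92.0 and 78.0 in the 3 CD11b+ arrays, with no overlap (log2 difference -6.34 ± 0.30, adjusted p = 1.1e-19). Clec4a3 read 3286, 2345 and 1823 in CD11b+ and 98.8 and 76.1 in CD11b- arrays (log2 difference 4.80 ± 0.18, adjusted p = 1.3e-22). Clec4e was higher in CD11b+ by 5.38 ± 0.42, Clec4a1 by 3.47 ± 0.20, Clec4a2 by 3.24 ± 0.22, Clec4b1 by 3.18 ± 0.40, Clec10a by 2.72 ± 0.49, Clec4d by 2.62 ± 0.31 and Clec4n by 2.22 ± 0.31. Clec4b1 and Cd209c were highest in the CD11b+ cells, Clec4b1 with 838, 569 and 364, and Clec4b2 and Cd209e in the CD11b- cells, Clec4b2 with 317 and 402; the Clec4b1 and Clec4b2 arrays lay above every other array of the series. The lower genes beside Clec9a were Clec4b2 (-2.78 ± 0.24), Clec1a (-2.53 ± 0.20) and Cd209e (-1.87 ± 0.34). Clec9a was most like Zfp366 (r 0.86), Pkib (0.80) and Notch4 (0.78) over the groups. It also read 1945, 1976 and 1775 in F480hi and 1521, 1283 and 1445 in F480int liver arrays, where Xcr1, a marker of the CD11b- dendritic cell, read 86.9, 118 and 129 in F480hi and 147, 587 and 353 in F480int arrays, against 4038 and 4573 in the CD11b- dendritic cells.

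**Figure D4:**
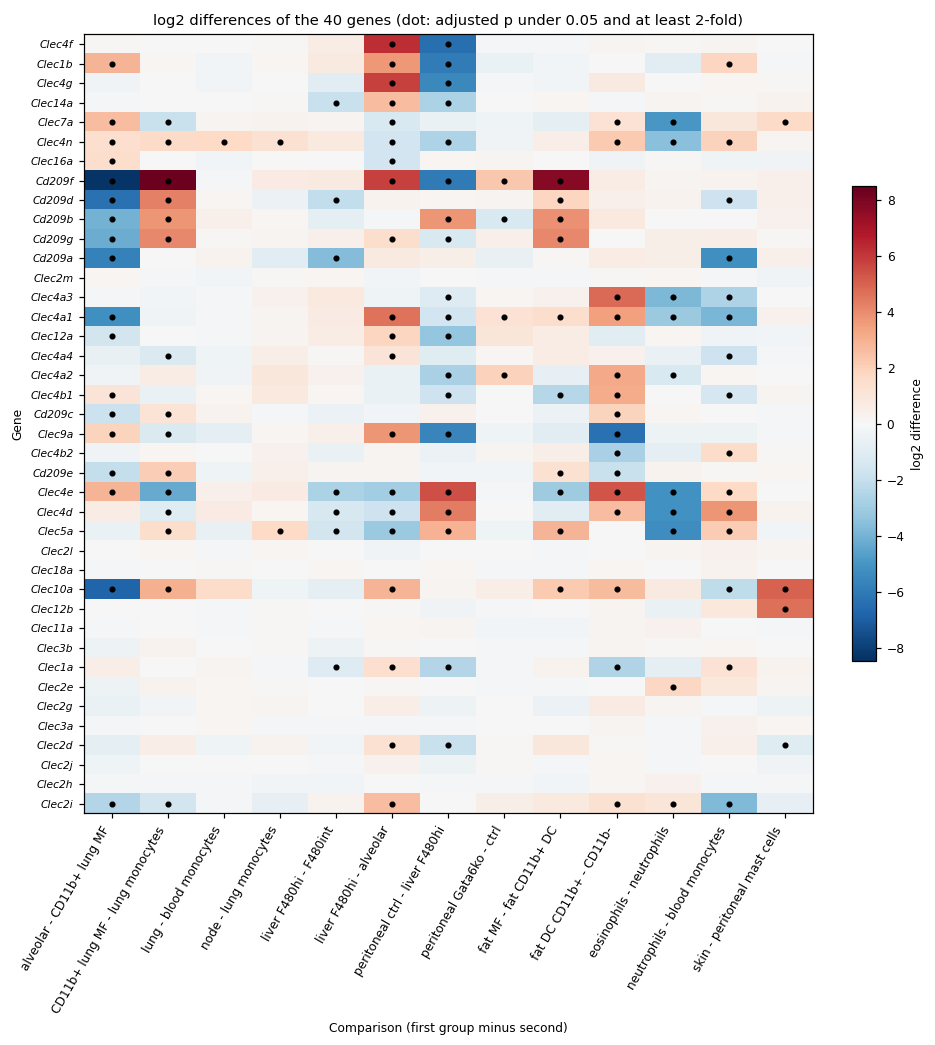
Log2 difference of the 40 genes (rows) in 13 comparisons of myeloid cells (columns), with a dot where a difference passed the test. Cd209 genes are negative in alveolar against CD11b+ lung macrophages and positive in CD11b+ lung macrophages against lung monocytes except for Cd209a.

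Among the activating receptors, Clec4e, Clec4d and Clec5a had their highest group means in neutrophils, and Clec7a and Clec4n in alveolar macrophages. Clec4e read 3496, 4077, 4324 and 3913 in the 4 neutrophil arrays and 123, 101 and 113 in the 3 eosinophil arrays, with no overlap. Clec4d read 3495, 3271, 3638 and 3571 in neutrophils and 67.6, 87.9 and 158 in eosinophils. Eosinophils differed from neutrophils in 10 of the 40 genes, 2 higher and 8 lower, against 9.16% of probe sets (3.4% higher and 5.75% lower). The lower genes were Clec5a (-5.30 ± 0.31), Clec4d (-5.16 ± 0.26), Clec4e (-5.14 ± 0.35), Clec7a (-4.95 ± 0.18), Clec4a3 (-3.84 ± 0.15), Clec4n (-3.53 ± 0.26), Clec4a1 (-3.17 ± 0.16) and Clec4a2 (-1.27 ± 0.18). Clec2e (1.78 ± 0.15) and Clec2i (1.05 ± 0.19) were higher, and the call of Clec2i was lost without eosinophil replicate 5, at 0.94, and on log2(intensity + 32), at 0.81. The neutrophil genes on the eosinophil arrays summed to 9630.3 to 10186, against 39255 to 40979 on the neutrophil arrays.

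Neutrophils differed from blood monocytes in 15 of the 40 genes, 7 higher and 8 lower, against 14.5% of probe sets (5.36% higher and 9.17% lower). Clec4d was higher by 3.77 ± 0.29, Clec5a by 2.17 ± 0.35, Clec4n by 1.98 ± 0.29, Clec4e by 1.69 ± 0.40, and Clec1b by 1.81 ± 0.23. The lower genes were led by Cd209a, given above, Clec4a1 (-3.91 ± 0.19), Clec2i (-3.78 ± 0.22), Clec4a3 (-2.61 ± 0.17) and Clec10a (-2.16 ± 0.46). Clec5a read 2333, 1786, 1917 and 1973 in neutrophils, above every other array, as did Clec4d. Clec7a, or Dectin-1, which binds fungal beta-glucan, read 4607, 4438 and 4925 in alveolar macrophages, 5029, 4386, 4383 and 4304 in neutrophils and 578, 811 and 886 in CD11b+ lung macrophages, and it was higher in alveolar than in CD11b+ lung macrophages by 2.64 ± 0.19. The alveolar cells were also higher in Clec1b (2.90 ± 0.22), Clec4e (2.87 ± 0.38) and Clec9a (1.89 ± 0.27), and lower in Clec10a (-6.83 ± 0.44). Clec4n, or Dectin-2, which binds fungal mannans, read 2877, 3082 and 3255 in alveolar macrophages, above every other array, 1129.9, 1081 and 1234 in CD11b+ lung macrophages, 458, 276 and 393 in lung monocytes and 109.9 and 118 in blood monocytes.

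Few of the genes passed between monocytes of different sites. Lung and blood monocytes differed in 1 of the 40 genes, against 0.582% of probe sets in that direction: Clec4n, higher in lung (log2 difference 1.69 ± 0.31, adjusted p = 0.00119), and this call was lost without blood monocyte replicate 2 (adjusted p = 0.0617). Skin-node and lung monocytes differed in 2, against 0.598% of probe sets in that direction: Clec5a, a receptor that signals through DAP12, read 690.0, 906 and 1362 in node and 328, 292 and 256 in lung monocytes (log2 difference 1.71 ± 0.33, adjusted p = 9.0e-04), and Clec4n was higher in the node by 1.26 ± 0.28, a call lost without lung monocyte replicate 2 (adjusted p = 0.075). Clec4e read 2324, 1919.6 and 1028 in lung monocytes and 94.6, 62.7 and 110.2 in CD11b+ lung macrophages, without overlap (log2 difference -4.26 ± 0.38, adjusted p = 5.3e-12). The macrophages were also lower in Clec7a (-1.86 ± 0.19), Clec2i (-1.57 ± 0.20), Clec9a (-1.23 ± 0.27) and Clec4a4 (-1.23 ± 0.31), and the last call was lost without CD11b+ lung macrophage replicate 1 (-0.83). On log2(intensity + 32) the calls of Clec9a (-0.80), whose means were both under background, and Clec4a4 (-0.84) were lost. The profiles of Clec4d and Clec4e over the 65 groups correlated at 0.93.

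Skin mast cells differed from peritoneal mast cells in 4 of the 40 genes, 3 higher and 1 lower, against 6.59% of probe sets (3.2% higher and 3.39% lower). Clec10a, which binds galactose and N-acetylgalactosamine, read 3946, 4798 and 5390.3 in the 3 skin arrays, its highest group mean, and 210.4, 266, 53.7 and 136 in the 4 peritoneal arrays (log2 difference 5.04 ± 0.41, adjusted p = 6.2e-13). Clec12b, an inhibitory receptor, read 2093, 1909.6 and 1629 in skin and 88.2, 69.2, 49.7 and 100.3 in peritoneal arrays (log2 difference 4.65 ± 0.19, adjusted p = 4.0e-22), and its skin arrays lay above every other array of the series. Clec7a was higher in skin by 1.61 ± 0.18, and Clec2d was lower (log2 difference -1.05 ± 0.16), a call lost without skin replicate 3 (-0.98). Of the macrophage genes Adgre1, Mertk, Fcgr1 and Csf1r, 0 of 4 were over background in either group, with sums of 258 to 268 in skin and 236 to 283 in peritoneal mast cells. Among the other lectins Mgl2 was higher in skin by 1.78 ± 0.36 (limma, adjusted p = 1.5e-04). The part of RNA of other cells in the Clec10a and Clec12b differences was not tested. Without the 2 peritoneal arrays labelled as blood, 4 genes passed.

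Clec2d and Clec2i had their highest group means in T-lineage cells, neither separated from the next groups. Clec2d, or Clr-b, a ligand of the inhibitory receptor Klrb1b, had its highest group mean in CD8 cells of the spleen (CD45.1+, KLRG1-, CD127+) titled memory, taken from mice of 45 days on day 8 after infection with Listeria that carries ovalbumin (LisOVA in the title), at 4547 ± 1325 (SD, n = 3). The KLRG1+ CD127- cells titled effector of the same day read 4096 ± 395 (SD, n = 2) and lymphatic endothelium 4068 ± 427 (SD, n = 2), within that spread, and Clec2d was over background everywhere. Clec2i, or Clr-g, a ligand of Klrb1f, was highest in CD69+ double-positive thymocytes, at 1286 ± 55.0 (SD, n = 3), with the single B1a array at 1276. In CD4 cells 2 of the 40 genes were lower 24 h after stimulation, against 2.76% of probe sets in that direction, and in CD8 cells the same 2, against 2.65% of probe sets in that direction. Clec2i in CD4 cells read 687 and 838 in the controls, 659 and 629 at 1 h, 403 and 442 at 5 h, 296 and 215 at 24 h, 648 and 628 at 48 h and 824 at 96 h. The 24 h arrays lay under the controls and the 48 h and 96 h arrays were near them, and the 24 h difference was -1.59 ± 0.17 (adjusted p = 1.4e-06). In CD8 cells Clec2i read 689 and 684 in the controls and 252 and 232 at 24 h (log2 difference -1.51 ± 0.17, adjusted p = 3.3e-06).

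Clec2d read 2074 and 3884 in CD4 controls and 978 and 1602 at 24 h (log2 difference -1.18 ± 0.32, adjusted p = 0.00927), and in CD8 cells it read 1928 and 2305 in the controls and 776 and 1222 at 24 h (log2 difference -1.11 ± 0.32, adjusted p = 0.0164). The Clec2d calls were lost without the first 24 h array or the second control array of each cell type (adjusted p 0.12 and 0.127 in CD4, 0.172 and 0.103 in CD8). The responses of CD8 and CD4 cells differed by limma in 0 of the 40 genes, of which 0 had an unadjusted p under 0.05, and in 0.273% of probe sets. For Clec2i the difference of responses was 0.08 ± 0.23 (adjusted p = 0.96) and for Clec2d 0.07 ± 0.45 (adjusted p = 0.99).

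**Figure D5:**
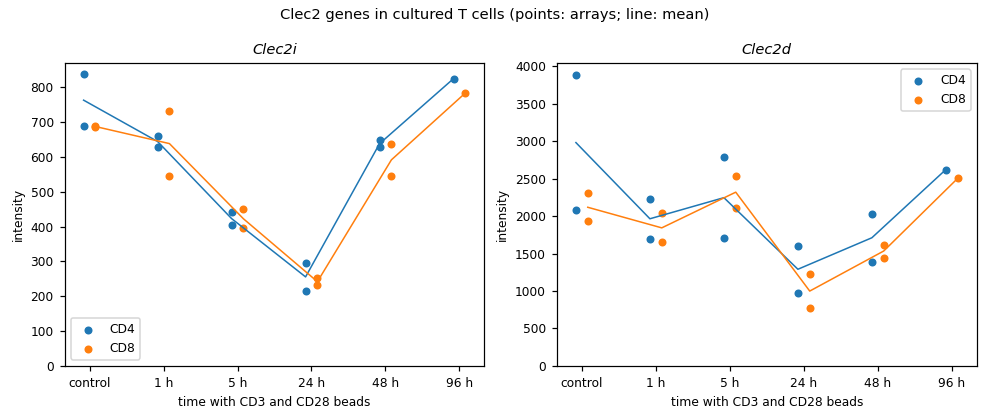
Intensity of Clec2i and Clec2d in CD4 and CD8 cells of the control and at 1, 5, 24, 48 and 96 h of stimulation, with each array as a point. The mean of each gene was lowest at 24 h in both cell types, and the array at 96 h lay near or above the lower control array.

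Medullary epithelial cells that were GFP+ were compared with GFP- cells. Aire, a regulator of tissue-restricted genes in these cells, read 3605, 5203 and 4457 in the GFP+ arrays, 570.4, 772 and 495 in the GFP- arrays and 3893, 4039 and 4387 in the knockout arrays. The GFP+ cells were higher in 3 of the 40 genes, against 4.31% of probe sets in that direction: Clec12a (1.60 ± 0.12), Cd209a (1.30 ± 0.17) and Clec12b (1.18 ± 0.12). Clec12a read 169, 217 and 214 in GFP+, 65.6, 66.8 and 63.5 in GFP- and 45.3, 54.6 and 43.7 in knockout arrays. The knockout was lower than GFP+ in 3 of the 40 genes, against 3.7% of probe sets in that direction: Clec12a (-2.06 ± 0.12), Cd209a (-1.18 ± 0.17) and Clec5a, with means under background. Both comparisons share the GFP+ group, and on log2(intensity + 32) 1 of the 3 genes passed in each. Sums of the macrophage list were 432 to 499 in GFP+, 218 to 288 in GFP- and 229.5 to 309 in knockout arrays, and of the neutrophil list 548 to 743, 236 to 324 and 189 to 192, and their part in the differences was not tested. Clec2i read 519, 594 and 519 in GFP+, 315, 319 and 279 in GFP- and 860.3, 924 and 979 in knockout arrays, without overlap but under 2-fold in each comparison. Clec2e had its highest level in the single array of MHCII high medullary epithelium of 5 weeks, 368, next to 363 ± 18.9 (SD, n = 2) in that of 8 weeks.

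In lymph node stroma, Clec1a and Clec4g were higher in endothelium and Clec3b and Clec11a in fibroblasts. Lymphatic endothelial cells differed from fibroblastic reticular cells in 6 of the 40 genes, 4 higher and 2 lower, against 9.7% of probe sets (4.18% higher and 5.52% lower). Clec1a read 1535 and 2010.3 in lymphatic endothelial and 203 and 228 in fibroblastic arrays (log2 difference 3.03 ± 0.16, adjusted p = 4.9e-08), and Clec4g read 477 and 1049 in lymphatic endothelial and 76.5 and 72.0 in fibroblastic arrays (log2 difference 3.25 ± 0.28, adjusted p = 3.6e-06), a difference that was -0.32 by its other probe set. Clec3b, the secreted protein tetranectin, read 81.8 and 66.3 against 620.1 and 570.2 (-3.01 ± 0.16), and the growth factor Clec11a was lower in the endothelium (log2 difference -2.26 ± 0.19). Clec11a was highest in double-negative cells 6 days after adjuvant, at 356 ± 89.7 (SD, n = 2), Clec3b in the single Cad11-labelled fibroblastic array, at 659, and Clec1a in the single lymphatic endothelial array after adjuvant, at 1896. The calls of Clec4e and Clec12b between endothelium and fibroblastic cells were lost in some leave-one-out fits. There the log2 difference of Clec4e was 1.15 to 1.33, and that of Clec12b 0.98 without either first array. On log2(intensity + 32) both calls were lost too (Clec4e 0.74, Clec12b 0.74). In 1 of these 6 differences both means were under background. The Klrb1f receptor was higher in lymphatic endothelium by 6.18 ± 0.26. Double-negative cells differed from fibroblastic cells in 6 of the 40 genes, 2 higher and 4 lower, against 6.42% of probe sets (3.3% higher and 3.11% lower), with log2 differences of -1.90 ± 0.18 for Clec14a, -1.56 ± 0.16 for Clec1a, -1.30 ± 0.16 for Clec3b and 1.77 ± 0.36 for Clec4e (0.98 without double-negative replicate 2). On log2(intensity + 32) the calls of Clec4d (0.86) and Clec9a (-0.91) between double-negative and fibroblastic cells were lost. In 2 of those 6 differences both means were under background. The neutrophil list summed to 415 to 459 in double-negative (2 of 4 over background) and 170.3 to 177 in fibroblastic arrays, and its part in the Clec4e and Clec4d differences was not tested.

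The 7 genes with no passing difference were Clec18a, Clec2g, Clec2h, Clec2j, Clec2l, Clec2m and Clec3a. Their highest group means were 273 for Clec18a in the fat eosinophil array, 202 for Clec2l in blood eosinophils, 152 for Clec3a in GFP+ medullary epithelium, 126 for Clec2g in MHCII low medullary epithelium of 8 weeks, 123 for Clec2j and 121 for Clec2h in the day 8 CD8 cells titled memory, and 88.0 for Clec2m. Clec16a, an endosomal and autophagy protein outside the lectin receptors, was highest in alveolar macrophages, at 1056 ± 36.7 (SD, n = 3), and was higher there than in CD11b+ lung macrophages by 1.51 ± 0.13.

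The signalling partners of the receptors and other lectins were counted from lists. Of 15 signalling genes, among them Syk, Card9, Bcl10 and Malt1, 3 were higher (Card9 1.08, Malt1 1.45, Plcg2 1.07) and 1 lower (Src -1.10) in alveolar against CD11b+ lung macrophages, against 4.91% of probe sets higher and 4.27% lower, with a median of 0.07 over the list and -0.01 over all probe sets. By limma 0 of 15 passed between the liver groups and 0 of 15 in the Gata6ko comparison, where 7 and 2 had an unadjusted p under 0.05, against 3.18% and 1.09% of probe sets that passed. Card9 (-1.78) and Vav1 (-2.45) were lower in eosinophils than in neutrophils, 2 of 15 against 5.75% of probe sets in that direction. By limma all 15 signalling genes had an unadjusted p under 0.05 there, most with differences under 2-fold. The share of all probe sets at that level was not computed. Of 11 other lectins, alveolar macrophages were higher in Ly75 (4.75) and Cd302 (1.25) and lower in Mgl2 (-6.87), Siglech (-4.28), Colec12 (-3.29) and Asgr2 (-2.37) than CD11b+ lung macrophages, 2 higher and 4 lower against the shares given above, with a median of -0.40. Between CD11b+ lung macrophages and lung monocytes 6 of the 11 other lectins were higher and 0 lower, against 4.17% of probe sets higher and 3.94% lower, with a median difference of 1.33 over the list and 0.0036 over all probe sets.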

How the data were processed

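Total RNA from 145 samples was labelled with biotin for Affymetrix arrays, per the labels. The deposited values are linear intensity per probe set and array, made by the authors with Affymetrix Power Tools and RMA, per the submitters' processing notes; their versions, a genome build and the scope of the normalization are not given in the sources used. Of 24922 probe sets, 21425 carried 1 gene symbol in the platform annotation, 1399 several and 2098 none listed. All 41 probe sets of the genes described had a matching RefSeq record, and 0 symbols were renamed. The number of arrays per group limits the precision: 12 groups had 1 array, 28 had 2, 23 had 3 and 2 had 4.

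The log2 of the intensities was taken, and group means were compared with limma 3.58.1 (lmFit and eBayes, two-sided) in R 4.3.3, with no filter. The myeloid groups, the stroma, the T cells and the medullary epithelium were fitted separately, so groups of 2 borrow their spread from the others of their fit. The Benjamini-Hochberg adjustment ran over all probe sets. A difference passed at an adjusted p under 0.05 and at least 2-fold. The fit was tested on simulated data. The arrays have no true zero, so a fold against a group under background is as measured, not a bound.

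The genes and gene lists were chosen with earlier results of these data known. Each gene was named with its group of highest mean, and in each comparison up to 5 passing genes with the largest positive and 5 with the largest negative difference; the 3 genes most alike by Pearson correlation were given for the 5 genes with the widest range of group means. Other genes were named because they belong to a list or role, after their values were seen. Erythroid, Ly6c and Hbb genes of the marker lists were not measured under those symbols, and lists with genes missing were used with the rest. Promoters came from RefSeq (GRCm38.p6) and matched 33 of 40 genes; Clec4a4, Clec4n, Clec3b, Clec3a, Clec2j, Clec1a and Clec10a did not match.

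Replicate numbers shared between groups were checked by the correlation of deviations from the group means. All 3 pairs correlated positively for GFP+ against GFP- epithelium (0.14 to 0.40) and for the Gata6ko label against control (0.0085 to 0.245). Groups of 2 arrays gave a single value, 0.54 for CD8 cells at 24 h against control and 0.23 for double-negative against fibroblastic stroma. It was 0.019 for lymphatic endothelium against fibroblastic cells and 0.0038 for CD4 cells. The other comparisons with at least 2 shared numbers had a negative pair. With the replicate block 3 genes passed between GFP+ and GFP- epithelium, as without it. Alternatives were another probe set, a filter on dim probe sets, quantile normalization, log2(intensity + 32), other sets of groups in the fit, the replicate block, and leaving out each array.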

Additional observations from a re-analysis of the deposited data

Results flagged for a closer look

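Within groups of 4 arrays, 5 of 80 gene and group pairs had an array far from the others by Dixon's criterion, and chance gives about 1 in 20. In neutrophils, Clec7a read 5029 in replicate 4 against 4304 to 4386 in the others, Clec4a2 read 657 in replicate 4 against 432 to 451, and Clec2m read 71.6 in replicate 5 against 60.7 to 62.5. In peritoneal mast cells, Cd209f read 12.8 in replicate 4 against 18.2 to 19.1 and Clec4d read 66.9 in replicate 5 against 49.2 to 50.4, all under background.

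Other genes were brightest in groups outside the comparisons. Cd209a read 6309 in the single blood monocyte array titled 6+2+, against a highest compared group mean of 6014 in fat macrophages. Clec18a read 273 in the single fat eosinophil array, against 209 in CD4 cells at 1 h. Clec1a read 1896 in the single lymphatic endothelial array 6 days after adjuvant, against 1772 in untreated lymphatic endothelium, and Clec3b read 659 in the single Cad11-labelled fibroblastic array, against 595 in fibroblastic reticular cells. The day 8 CD8 cells titled memory had means of 4547 for Clec2d, 121 for Clec2h and 123 for Clec2j, against 4068 in lymphatic endothelium, 100.4 in blood eosinophils and 121 in peritoneal mast cells. Clec2i had a mean of 1286 in CD69+ double-positive thymocytes, against 1002 in blood monocytes. Clec2e read 368 in the single MHCII high epithelial array of 5 weeks and Clec2g had a mean of 126 in MHCII low epithelium of 8 weeks, against 328 and 121 in GFP- epithelium. None of these differences was tested.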

How the results depend on the processing

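Of 1362 alternative values for 110 named differences, 1328 kept their direction and side of the threshold, 32 lost the threshold, 20 of those by leaving out an array and 11 on log2(intensity + 32), and 2 reversed. Both reversals came with the other probe set of Clec4g. It gave 0.22 between peritoneal and F480hi liver macrophages and -0.32 between lymphatic endothelium and fibroblastic cells. The cause was not tested. Only Clec4g has another probe set, so for every other gene that alternative repeats the reported value and could not move it. All 3 named differences of Clec4g lost the threshold or reversed with it. Of 252 alternative counts of passing genes, 237 stayed within 1.5 times the count reported. Between lung and blood monocytes the count was 1, and it was 2 with all groups in a single fit, 2 with only the compared groups, 2 with the replicate block and 2 with the 6+2+ array counted as blood monocytes. The replicate block moved no other count beyond 1.5 times, and no block could be fitted where fewer than 2 numbers were shared (the dendritic cells, the granulocytes, the mast cells and the knockout epithelium). The filter on dim probe sets left 8 of the 40 genes tested between double-negative and fibroblastic stroma, where 3 passed. It left 4 tested in each epithelial comparison, where 0 passed. A named gene that the filter removed gave no value, so it is not counted among the 32 that lost the threshold. On log2(intensity + 32) 1 passed in each epithelial comparison.

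Leaving out 1 array gave counts of 17 to 18 (alveolar against CD11b+ lung macrophages), 13 to 15 (CD11b+ lung macrophages against lung monocytes), 0 to 1 (lung against blood monocytes, 0 without blood replicate 2), 1 to 3 (node against lung monocytes), 6 to 8 (F480hi against F480int liver), 3 to 5 (Gata6ko label), 9 to 13 (fat macrophages), 4 to 6 (lymphatic endothelium), 6 to 7 (double-negative stroma), 1 to 2 in CD4 and 1 to 2 in CD8 cells at 24 h, and 3 to 4 in each epithelial comparison. Genes near background, such as Clec5a and Clec12b in epithelium, are limited by signal over background.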
